A study of Mus musculus with 56 samples.

Results

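The comparison described here set motor neuron mRNA of pre-symptomatic hTDP-43 A315T mice against that of Chat bacTRAP control mice at 9 weeks of age. It held 8 of the 56 libraries of the series, 5 from A315T mice and 3 from Chat bacTRAP mice. All 8 were made by translating ribosome affinity purification (TRAP), in which mRNA is pulled down with tagged ribosomes. Every group carried the Chat bacTRAP line DW167, in which a bacterial artificial chromosome holding the Chat gene drives the EGFP-tagged ribosomal protein Rpl10a in cholinergic neurons. The A315T mice carried in addition the line 95Balo, in which the mouse prion promoter drives human TDP-43 with the A315T substitution, so that the mutant protein is also made outside motor neurons. The labels give the tissue as cervical spinal cord and the study speaks of spinal cord of female mice. Libraries were made from polyadenylated RNA.

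The libraries were chosen by title and by a measured value. Lamr1-ps1, a processed pseudogene close to Prnp on chromosome 2, had 0.480 to 1.83 raw CPM (its counts scaled to the library total) in the 5 A315T libraries and 0 in control replicates 1, 2 and 3. The library labelled Chat bacTRAP replicate 4 had 1.34 raw CPM, over the threshold of 0.4, and was left out. These values chose the libraries and are given as a description, without a test. Leaving out a control that resembled the A315T libraries favours a difference between the groups, so counts and calls are also given with all 4 labelled controls. The left-out library, with 192686637 counts, was nearly the same as A315T replicate 5 in its gene shares. The chi-square per gene between them was 1.90, against 26.6 to 770.6 with the other 7 libraries and 17.5 to 264.6 between pairs of A315T libraries.

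TDP-43 is an RNA-binding protein that normally sits in the nucleus, where it controls splicing and the level of many neuronal mRNAs, and it is lost from the nucleus and aggregates in motor neurons in amyotrophic lateral sclerosis (ALS). Spinal motor neurons are large cholinergic cells with long axons filled with neurofilaments, and they are a small minority of the cells in the cord. A pulldown of their ribosomes therefore always carries some RNA of the glia and other neurons around them. At 9 weeks the question was whether ribosome-bound motor neuron mRNA already differed before motor symptoms.

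Of the genes used to check the genotype, 1 other separated the groups. Gm13886, annotated as a processed pseudogene, had 4.04, 10.6, 8.70, 8.68 and 11.1 raw CPM in A315T replicates 1 to 5. It had 0.594, 0.0273 and 1.21 raw CPM in control replicates 1 to 3, and 9.33 in the left-out library. Prnp, whose promoter drives the transgene, ran from 695 to 1396 raw CPM in A315T and from 777 to 841 in the controls, and the groups overlapped through A315T replicate 3. At the mouse Tardbp gene, any reads of the human transgene were not set apart. Tardbp had 104 ± 19.99 raw CPM in A315T (SD, n = 5) and 122 ± 6.37 in the controls (SD, n = 3). Its lowest value was 69.2, in A315T replicate 3. These genes are a genotype check, given without a test.

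The libraries differed in depth and in what else they carried. Total counts were 14711269 to 43799600 in A315T and 13460847, 36664926 and 2486628 in control replicates 1, 2 and 3, so that a single count in control replicate 3 was worth 0.402 CPM. Markers of the labelled cell type were present: the 20 motor neuron genes, among them Chat, Slc18a3, Mnx1, Isl1 and Prph, summed to 9890 to 16827 CPM in A315T. In the controls the sum was 10699 CPM in replicate 1, 5843 in replicate 2 and 9997 in replicate 3. Control replicate 2 stood apart. Its 26 oligodendrocyte genes summed to 22848 CPM, against 4042 and 3725 in the other controls and 2120 to 2893 in A315T. Its mitochondrially encoded RNA was 2.98% of all counts, against 0.143% and 0.270% in the other controls and 0.0398% to 0.0795% in A315T.

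**Figure D1:**
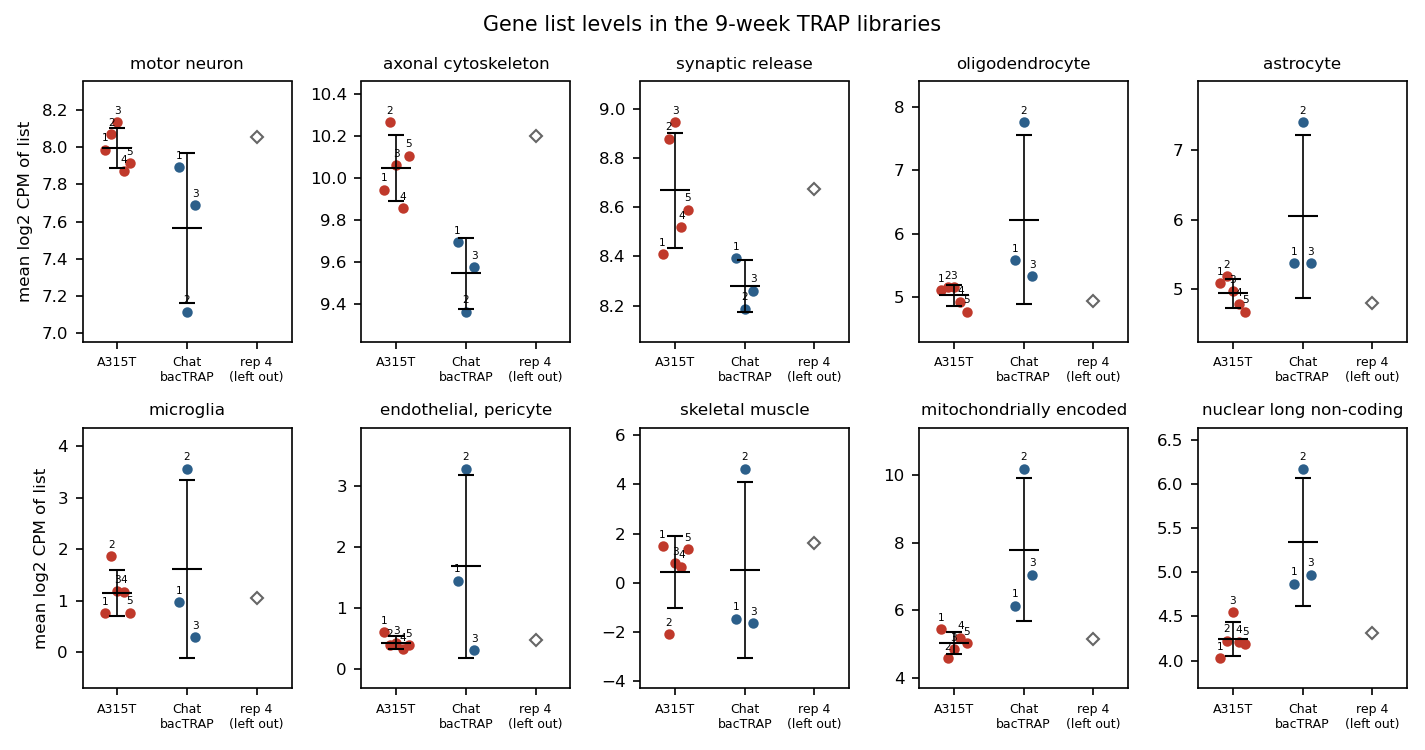
Mean log2 CPM of the members of 10 gene lists (vertical axes, which differ between panels) in each 9-week TRAP library, with small digits giving the replicate; bars show the mean and SD of 5 A315T and 3 Chat bacTRAP libraries, and the open diamond is the left-out replicate 4. Control replicate 2 is the highest library in the glial, endothelial, muscle, mitochondrial and long non-coding panels. It is the lowest in the motor neuron, axonal cytoskeleton and synaptic release panels. The left-out library sits within or next to the A315T range.

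Across 18813 genes tested with edgeR, 565 (3.00%) were called, that is, had a Benjamini-Hochberg adjusted p under 0.05 and a change of at least 1 on the log2 scale. Of these, 36 (0.191% of all genes) were higher and 529 (2.81%) lower in A315T. The median change over all genes was 0.02. A total of 3603 genes had an unadjusted p under 0.05.

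These counts rested on control replicate 2. Of the 529 lower genes, 447 (84.5%) had their highest value of the 8 libraries in control replicate 2, against 27.3% of all genes tested. Without that library 14 of 19448 genes (0.0720%) were called, all lower, and the median change over all genes was 0.14. The median change of the 529 lower genes moved from -2.12 to -0.84, whereas that of the 36 higher genes moved from 1.14 to 1.03. With all 4 labelled controls 102 of 18838 genes (0.541%) were called, 1 of them (0.00531%) higher, and all 102 were among the 565. No gene was called when the spread was estimated from TRAP libraries alone, where 1143 genes had an unadjusted p under 0.05, or from the 8 libraries, where 2198 had. DESeq2 called 10 genes in TRAP libraries alone and 345 in the 8 libraries. With the mean level of glial and endothelial genes as a covariate 10 genes were called, all lower. In the main fit the spread was estimated from 55 libraries of 12 groups, cord included. The p-values measure only the spread between libraries.

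**Figure D2:**
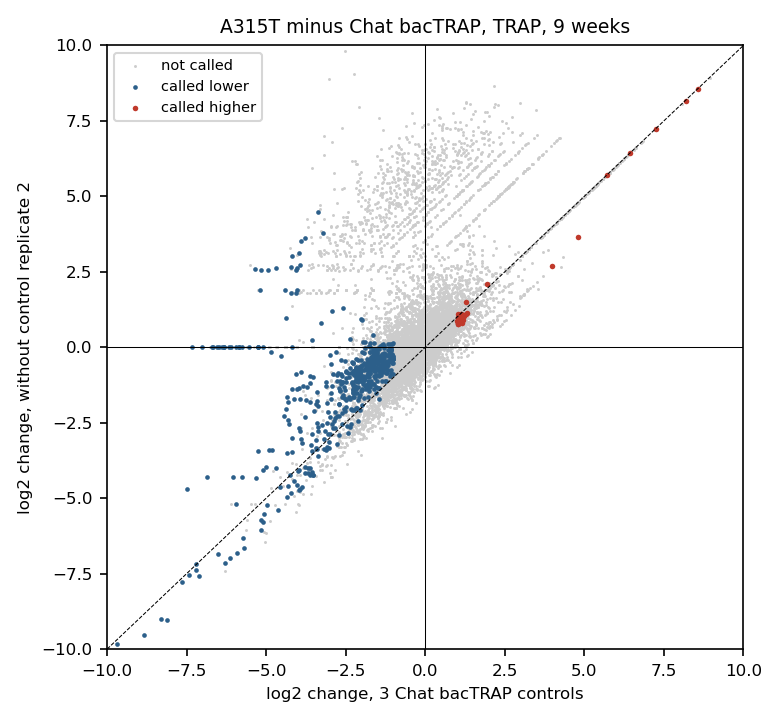
Log2 change of each gene in A315T against the 3 controls (horizontal axis) and against control replicates 1 and 3 (vertical axis); each point is a gene and the dashed line marks equal values. Called lower genes lie mostly above the line, closer to 0 without control replicate 2, and most called higher genes lie near it.

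Many of the lower genes were of the kind that is more abundant in whole cord than in the motor neuron pulldown. In hTDP-43 WT libraries at 14 weeks, none of which enters the 9-week groups, 14.4% of genes tested were higher in whole cord than in TRAP and 12.3% higher in TRAP. Of the 529 lower genes 289 (54.6%) were of the cord kind and 4 (0.756%) of the TRAP kind. TRAP replicate 5 of these libraries held Lamr1-ps1 at 1.69 raw CPM, within the A315T range, and its part in this division was not tested. In whole cord at 9 weeks the median change was -0.27 for oligodendrocyte genes and -0.25 for astrocyte genes. It was 0.27 for microglial genes and -0.92 for endothelial and pericyte genes. Fewer cells of a type, less RNA per cell or a smaller share of surrounding RNA in the pulldown could each lower such genes. Which of them applied was not tested.

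Of the gene lists examined, that of mitochondrially encoded genes had the largest share of lower genes (90% of 10). That of oligodendrocytes had the largest number. Of 26 tested, 19 were called lower, where 2.81% of all genes were, and none higher. The median change was -1.67, against 0.02 over all genes. Opalin, a myelin membrane protein, had 7.43, 6.52, 10.3, 8.15 and 6.04 CPM in A315T and 15, 64.9 and 19.5 CPM in the controls. All 3 controls were above all 5 A315T libraries, and the change was -2.14 ± 0.40 (log2, SE, adjusted p = 0.00212). Tmem88b, which is enriched in oligodendrocytes, had 30.9 to 36.8 CPM in A315T and 52.4, 289 and 76.6 CPM in the controls, a change of -2.04 ± 0.40 (adjusted p = 0.00278). Bcas1, a marker of oligodendrocytes that are forming myelin, changed by -2.17 ± 0.41 (adjusted p = 0.00260). The groups did not overlap for 7 of the 26 genes, and over all genes this was so, in the lower direction, for 2.93%. Without control replicate 2 no member was called and the median was -0.48. With 4 labelled controls 5 were called and the median was -1.37.

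Oligodendrocyte precursor genes gave 4 called lower of 8, where 2.81% of all genes were, with a median of -1.39 that became -0.32 without control replicate 2. Pdgfra, the growth factor receptor that marks these cells, had 0.817 to 4.21 CPM in A315T and 5.13, 18.0 and 4.97 CPM in the controls, with no overlap. No precursor gene was called without control replicate 2 or with 4 controls.

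Astrocyte genes gave 14 called lower of 21, where 2.81% of all genes were, with a median of -1.64. Slc1a3, the glutamate transporter GLAST, had 5.24, 5.26, 3.69, 4.14 and 4.61 CPM in A315T and 7.73, 43.2 and 14.1 CPM in the controls. The change was -2.29 ± 0.41 (adjusted p = 0.00175), with no overlap. Gja1, which encodes the gap junction protein connexin 43, had 7.96 to 24.1 CPM in A315T and 33.0, 193 and 32.3 CPM in the controls, a change of -2.59 ± 0.54 (adjusted p = 0.00398). Gfap, the astrocyte intermediate filament, was not called, with 137 to 253 CPM in A315T and 164, 639 and 103 CPM in the controls. The list's median was -0.47 and no member was called without control replicate 2. With 4 labelled controls 3 were called.

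Microglial and vascular genes were at their highest in control replicate 2. The 16 microglial genes summed to 40.7 to 85.7 CPM in A315T and to 45.8, 219 and 53.8 CPM in the controls. Called lower were 4 of them, where 2.81% of all genes were. P2ry12, a purinergic receptor of resting microglia, had 0.333 to 2.02 CPM in A315T and 3.08, 19.8 and 2.90 CPM in the controls, with no overlap. The microglial median turned from -1.09 to 0.34 without control replicate 2, and Siglech, which was called lower at -2.58, stood at 1.29. Of 16 endothelial and pericyte genes 7 were called lower, against the same 2.81%, with a median of -2.16 that became -0.97 without replicate 2. No microglial or endothelial gene was called with 4 labelled controls. Flt1, a VEGF receptor, had 0.582 to 1.03 CPM in A315T and 3.08, 9.17 and 2.90 CPM in the controls. None of the 15 skeletal muscle genes was called, and their median turned from -2.28 to 2.71 without control replicate 2. Their sums were 7.95 to 71.7 CPM in A315T and 16.6, 576 and 18.2 CPM in the controls.

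Mitochondrially encoded RNA gave 9 of the 10 largest falls among genes averaging at least 5 CPM. Of 25 genes tested on the mitochondrial chromosome 17 were called lower, where 2.81% of all genes were. On the list of mitochondrially encoded genes 9 of 10 tested were called lower, with a median of -4.07. The groups did not overlap for any of the 9, where this held in the lower direction for 2.93% of all genes. mt-Rnr2, the large mitochondrial ribosomal RNA, had 129, 39.1, 43.6, 83.0 and 60.5 CPM in A315T and 183, 3930.3 and 512 CPM in the controls. The change was -4.44 ± 0.92 (adjusted p = 0.00430). mt-Nd1, a subunit of respiratory complex I, had 76.3 to 149 CPM in A315T and 280.5, 5297 and 489 CPM in the controls, a change of -4.12 ± 0.86 (adjusted p = 0.00448). Both other controls were thus above every A315T library, by less than replicate 2 was. Without replicate 2 the median of the 10 genes was -1.58 and none of them was called. A mitochondrial transfer RNA outside the list, mt-Tt, was called without replicate 2 (adjusted p = 0.0153). With 4 labelled controls 7 of the 10 were called and the median was -3.69. The 83 nuclear genes of the same respiratory complexes had a median of 0.06 and none was called.

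Of 10 long non-coding RNAs that stay in the nucleus 2, Meg3 and Neat1, were called lower, where 2.81% of all genes were, and the median was -1.17. Without control replicate 2 none was called and the median was -0.76. With 4 labelled controls 1 was called, Neat1 (adjusted p = 0.0410). Meg3 had 26.4 to 53.2 CPM in A315T and 73.6, 266 and 97.3 CPM in the controls, a change of -2.10 ± 0.45 (adjusted p = 0.00475) with no overlap. It was -1.31 without control replicate 2 (adjusted p = 0.398). Neat1, the scaffold of paraspeckles, had 14.4 to 22.5 CPM in A315T and 19.96, 353 and 58.8 CPM in the controls, and the groups overlapped. Xist, which coats the inactive X chromosome, was among the 10 largest falls. It had 1.93, 1.36, 0.423, 0.582 and 1.06 CPM in A315T, against 6.23, 14.6 and 17.8 CPM in the controls. Its change of -3.56 ± 0.93 (adjusted p = 0.0219) was -3.43 without control replicate 2 (adjusted p = 0.244), and the left-out library had 1.03 CPM. The 4 Y-linked genes examined summed to at most 0.164 raw CPM in the 9-week TRAP libraries of both groups.

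Of 19 transmitter and interneuron genes 2 were called lower, where 2.81% of all genes were, and the median was -0.66. Slc17a6, the vesicular glutamate transporter of excitatory spinal neurons, had 52.7, 49.5, 22.0, 55.6 and 55.4 CPM in A315T and 66.8, 224 and 74.5 CPM in the controls, a change of -1.39 ± 0.32 (adjusted p = 0.00827). Npy, a neuropeptide of dorsal horn interneurons, changed by -1.93 ± 0.40 (adjusted p = 0.00366). Gad1, the GABA-synthesizing enzyme, passed the adjusted p but not the fold, at -0.91 ± 0.23 (adjusted p = 0.0187). Its adjusted p was 0.806 without control replicate 2 and 0.0765 with 4 labelled controls. Without control replicate 2 neither Slc17a6 nor Npy was called and the median was -0.30, while with 4 labelled controls both were called.

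The 36 higher genes were mostly of moderate level, and 22 of them had their highest value in A315T replicate 3. Without that library 14 genes were called higher. The groups did not overlap for 27 of the 36, where this held in the higher direction for 5.67% of all genes. The 36 were called from these same libraries, so this separation follows in part from the call and is no separate evidence.

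Add2, which encodes beta-adducin, a protein that caps actin filaments and joins them to spectrin, was the largest named rise apart from Gm13886. It had 18.7, 21.6, 22.1, 12.2 and 12.7 CPM in A315T and 4.26, 5.27 and 3.73 CPM in the controls. Every A315T library was at least at 12.2 CPM and no control was above 5.27 CPM, and the change was 1.94 ± 0.49 (adjusted p = 0.0155). Without control replicate 2 it was 2.11 (adjusted p = 0.200). The left-out library had 14.1 CPM, and with it among the controls the change was 1.28 (adjusted p = 0.172). The gene lies on chromosome 6 at 86028681 to 86124409 (GRCm38, plus strand).

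Several of the other named rises encode RNA-binding or splicing proteins, which were not tested for enrichment. Hnrnpa1, a splicing regulator that is mutated in rare families with ALS, had 25.6, 35.9, 31.6, 27.2 and 25.4 CPM in A315T and 16.6, 13 and 9.52 CPM in the controls. The change was 1.13 ± 0.22 (adjusted p = 0.00265), and it was 1.11 without control replicate 2 (adjusted p = 0.0674). Processed pseudogenes of Hnrnpa1 share its sequence, so that its count is uncertain. Srrm4, a neural splicing factor that promotes microexon inclusion, had 31.5 to 49.5 CPM in A315T and 27.9, 17.2 and 12.4 CPM in the controls, a change of 1.15 ± 0.25 (adjusted p = 0.00508). Sf3a2, a component of the U2 snRNP, had 14.8, 27.0, 52.1, 24.1 and 19.3 CPM in A315T and 13.4, 8.49 and 11.6 CPM in the controls. Cherp, a nuclear protein bound to the same particle, changed by 1.13 ± 0.32 (adjusted p = 0.0328). With 4 labelled controls none of these 4 was called, with adjusted p-values of 0.0551 for Hnrnpa1, 0.276 for Srrm4, 0.207 for Sf3a2 and 0.258 for Cherp.

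Atg7, an enzyme that starts autophagosome formation, had 96.9 to 141 CPM in A315T and 52.0, 43.3 and 68.3 CPM in the controls, a change of 1.16 ± 0.29 (adjusted p = 0.0133). Anxa6, a calcium-dependent membrane-binding protein, had 619.9 to 942 CPM in A315T and 487, 200.4 and 302 CPM in the controls (change 1.18 ± 0.33, adjusted p = 0.0291). Naa80, the N-terminal acetyltransferase of actin, rose by 1.17 ± 0.34 (adjusted p = 0.0379). Sh2d3c, a signalling adaptor, rose by 1.14 ± 0.31 (adjusted p = 0.0242), and the unnamed gene ENSMUSG00000096952 by 1.20 ± 0.30 (adjusted p = 0.0165). None of these 5 genes was called without control replicate 2 or with 4 labelled controls, where the adjusted p-values ran from 0.121 for Sh2d3c to 0.361 for Atg7.

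**Figure D3:**
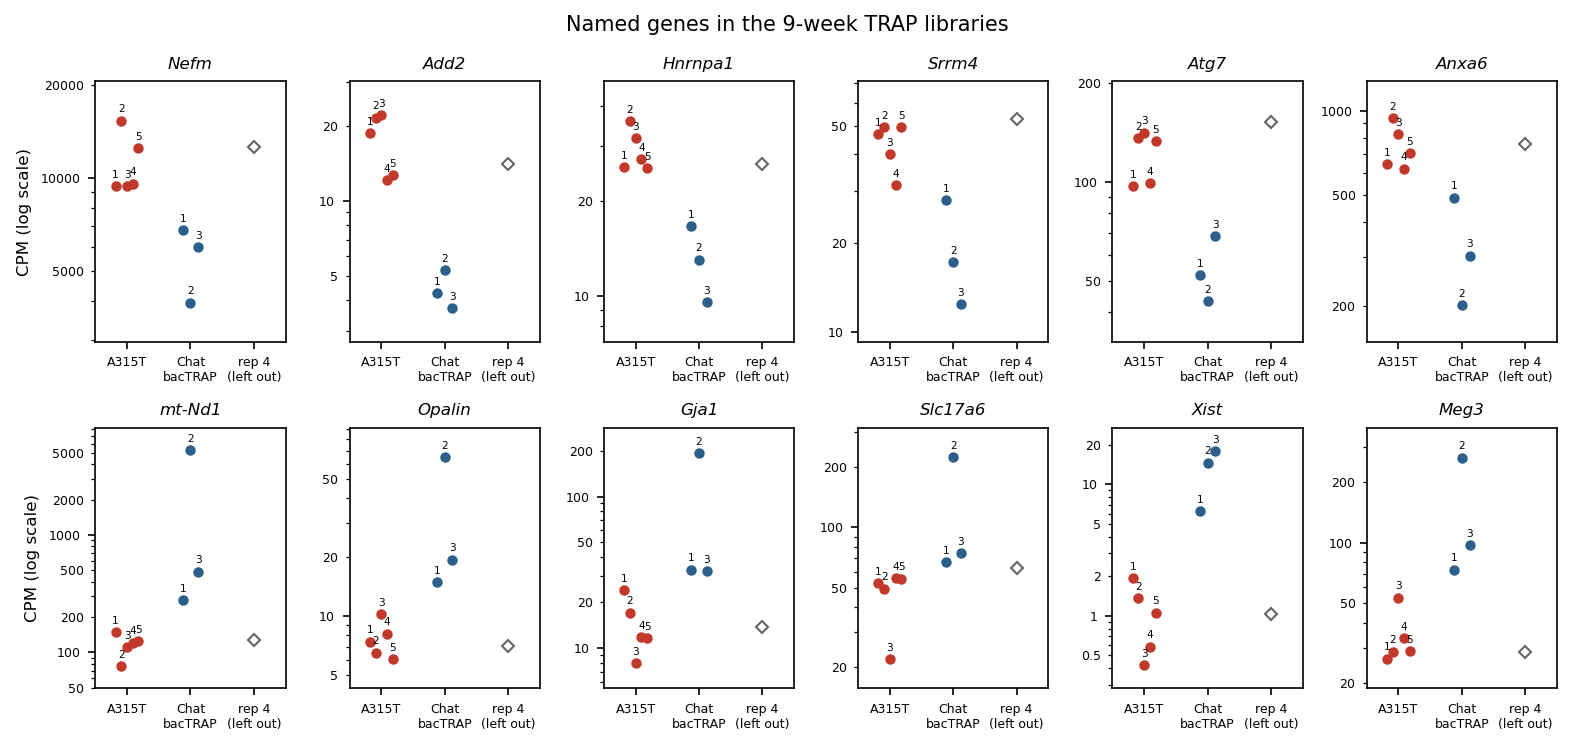
CPM on log axes of 6 genes called higher (top) and 6 called lower (bottom) in each 9-week TRAP library, with small digits giving the replicate and an open diamond for the left-out replicate 4. All A315T points of the top row lie above the 3 controls and all those of the bottom row below them, the excess of control replicate 2 is seen in the bottom row apart from Xist, and the left-out library lies within or next to the A315T range.

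Axonal cytoskeleton genes had a median change of 0.54 over 22 genes, against 0.02 over all genes. Without control replicate 2 the list median was 0.39, against 0.14 over all genes, and with 4 labelled controls it was 0.34. In the main fit 1 gene of the list was called, where 0.191% of all genes were called higher. This was Nefm, the medium neurofilament chain, with 9415, 15370, 9420.2, 9598 and 12537 CPM in A315T and 6786, 3946 and 5984 CPM in the controls. The change was 1.02 ± 0.24 (adjusted p = 0.00875). The heavy chain Nefh (change 0.98 ± 0.24, adjusted p = 0.0144) and the light chain Nefl (0.71 ± 0.20, adjusted p = 0.0357) passed the adjusted p and not the fold. The groups did not overlap for 7 of the 22 genes, the 3 chains among them, where this held in the higher direction for 5.67% of all genes. Without control replicate 2 the changes were 0.82, 0.82 and 0.59 for Nefm, Nefh and Nefl, and the adjusted p-values 0.300, 0.325 and 0.437. In the left-out library Nefm stood at 12583 CPM, inside the A315T range, and with 4 labelled controls its change was 0.62 (adjusted p = 0.238). Nefm also fell below the fold with DESeq2 (0.90), median-ratio scaling (0.90) and no filter (0.99), and in each of these no gene of the list was called.

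Motor neuron markers were not called in either direction. The 20 genes had a median change of 0.38 and ranged from 0.01 to 1.03. Chat, the acetylcholine-synthesizing enzyme, had 115, 265, 263, 169 and 183 CPM in A315T and 151, 57.4 and 83.2 CPM in the controls, with overlap (change 1.03 ± 0.43, adjusted p = 0.162). The Chat and Slc18a3 loci are also carried by the transgene of every mouse. Mnx1, a motor neuron transcription factor, had 60.8 to 95.0 CPM in A315T and 55, 36.7 and 59.6 CPM in the controls (change 0.64 ± 0.24, adjusted p = 0.122). Esrrb, a nuclear receptor, changed by 0.83 ± 0.28 (adjusted p = 0.0766). Control replicate 2 was the lowest library for Chat and Mnx1.

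Genes of transmitter release had a median of 0.39 over 22 genes with none called. Syn1, which tethers synaptic vesicles, had 474, 766, 724, 490.0 and 687 CPM in A315T and 387, 315.3 and 313 CPM in the controls, a change of 0.89 ± 0.21 that passed the adjusted p (0.00875) and not the fold. Cplx1, a regulator of vesicle fusion, changed by 0.65 ± 0.19 (adjusted p = 0.0472). Without control replicate 2 the adjusted p was 0.200 for Syn1 and 0.513 for Cplx1, and with 4 labelled controls it was 0.227 and 0.248. Of 24 ion channel genes none was called, and the median was 0.09.

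Lists tied to TDP-43 and ALS gave 1 called gene. None of the 18 mRNAs listed as TDP-43 targets was called, and their median was 0.15. Stmn2, whose splicing depends on TDP-43 in human neurons, had 3988 to 5045 CPM in A315T and 3499, 2251 and 3487 CPM in the controls (change 0.51 ± 0.18, adjusted p = 0.103). Of 30 genes mutated in or linked to ALS, Hnrnpa1 alone was called, where 0.191% of all genes were called higher. Their median was 0.37, against 0.02 over all genes. The groups did not overlap in the higher direction for 5 of the 30, where this held for 5.67% of all genes. Ewsr1 passed the adjusted p and not the fold, at 0.66 ± 0.19 (adjusted p = 0.0411). With 4 labelled controls no gene of the ALS list was called and its median was 0.21.

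Stress and injury programmes gave no calls. The 22 genes of the unfolded protein and integrated stress responses had a median of 0.06, the 20 heat shock proteins and chaperones 0.24, the 18 axon injury genes 0.24 and the 16 immediate early genes 0.01. Jun, a transcription factor that rises after axon injury, had 139 to 203 CPM in A315T and 109, 76.0 and 115 CPM in the controls. Its change was 0.79 ± 0.21, under the fold (adjusted p = 0.0248). The adjusted p of Jun was 0.431 without control replicate 2 and 0.278 with 4 labelled controls. Chac1, a target of the integrated stress response, had 33.0 to 65.3 CPM in A315T and 28.2, 15.3 and 14.1 CPM in the controls (adjusted p = 0.0542). No ribosomal protein gene of 84 (median -0.04) and no ribosome assembly gene of 36 (median 0.26) was called. None of 18 reactive glia genes was called.

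Of 12 genes named in the study, 2 were called at 9 weeks, both lower, where 2.81% of all genes were. Mog, a myelin surface protein, had 31.7 to 43.9 CPM in A315T and 56.5, 251 and 52.6 CPM in the controls (change -1.74 ± 0.37, adjusted p = 0.00448). The change was -0.59 without control replicate 2 (adjusted p = 0.671). Plekhb1, which the study followed as a motor neuron candidate, had 66.8 to 101 CPM in A315T and 98.1, 593 and 105 CPM in the controls (change -1.71 ± 0.39, adjusted p = 0.00746), and the groups overlapped. Its change was -0.31 without control replicate 2 (adjusted p = 0.844). The adjusted p with 4 labelled controls was 0.0525 for Mog and 0.0715 for Plekhb1. Tex26, Syngr4, Nhlh1 and Mxd3 were at or under 1.00 CPM in all 8 libraries. Nhlh1, a neuronal bHLH factor, had 0, 0.919, 0.544, 0.647 and 0.604 CPM in A315T and 0.473, 0.171 and 0 CPM in the controls (adjusted p = 0.454). Tia1, a stress granule protein, had 3.27 to 11.7 CPM in A315T and 5.92, 35.2 and 4.55 CPM in the controls (adjusted p = 0.163). This list came from the study of these samples and is not independent evidence.

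The 14 genes called without control replicate 2 were named after their values were seen. They were Otor, Ikzf2, Ren1, Gm2272, Adra2b, Ccdc180, Fcgbp, Nphs1, Cdk3-ps, Hist1h2bp, Gm26688, Actbl2, Atp13a5 and mt-Tt. Of these, 6 had counts in all 3 controls, 7 had no count in any A315T library, and 5 rested on 7 to 16 counts in 1 control. Nphs1, for example, had 10 counts in control replicate 3 and Actbl2 had 9 in control replicate 1, and both had none in the other 7 libraries.

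Otor, which encodes otoraplin, a small secreted protein known from the inner ear, had the most control counts of those absent from the A315T group. It had 62, 76 and 2 counts in control replicates 1, 2 and 3, or 4.61, 2.07 and 0.804 raw CPM, and no count in any of the 5 A315T libraries or in the left-out library. Summed over each group and scaled to the group totals, 140 counts stood against 0, so that Otor was at least 123-fold lower in A315T, taking 3 counts over the group as the floor (edgeR adjusted p = 0.00212, and 0.0153 without control replicate 2). Intervals and floors of this kind cover counting error only. The 9 A315T TRAP libraries of both ages held no Otor count, while 12 of the 15 other TRAP libraries in the analysis did. In cord its highest level was 0.341 raw CPM over 31 libraries.

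The RefSeq sequences upstream of the transcription start of Otor and of Add2 are printed to show the letters at these starts. Otor had no count in the A315T TRAP libraries, and Add2 was the largest named rise apart from Gm13886. Capitals mark TATAAA on either strand, which 12.4% of 32851 mouse promoters hold in the same 250 bases. It occurs 1 time before Otor, 35 bases before the RefSeq start, and is not in the Add2 window. The gene annotation used for the other coordinates starts Otor further on, at 143078473, so the distance to that start is larger. A match is a description of the letters only. Coordinates are GRCm38.p6, chr2:143078143-143078392 and chr6:86028431-86028680, both on the plus strand.
Otor: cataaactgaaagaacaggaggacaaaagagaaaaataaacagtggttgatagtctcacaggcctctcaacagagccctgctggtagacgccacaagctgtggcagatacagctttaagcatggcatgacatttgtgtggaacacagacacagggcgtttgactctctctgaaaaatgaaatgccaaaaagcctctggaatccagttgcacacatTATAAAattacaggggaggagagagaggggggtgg
Add2: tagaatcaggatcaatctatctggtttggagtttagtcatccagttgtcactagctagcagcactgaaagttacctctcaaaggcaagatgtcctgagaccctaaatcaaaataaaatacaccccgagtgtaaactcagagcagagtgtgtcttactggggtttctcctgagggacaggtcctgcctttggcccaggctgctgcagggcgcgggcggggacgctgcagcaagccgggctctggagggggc

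Of the 36 higher genes 5 had no count in the 3 controls. Apart from Lamr1-ps1 they were Myrfl, ENSMUSG00000096279, Krt80 and Phldb3. Myrfl, a relative of the myelin regulatory factor, had 0.633 to 1.34 CPM in every A315T library and 107 counts in all, at least 13.5-fold higher than the floor of 3 counts over the controls. For Krt80 the bound was 4.29-fold and for Phldb3 2.53-fold. Myrfl was named after its values were seen, and with 4 labelled controls its adjusted p was 0.383.

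Whole cord from the same genotypes at 9 weeks had fewer called genes than the 565 of TRAP in the main fit. That TRAP count was 14 without control replicate 2 and 0 when the spread was estimated from TRAP libraries alone. In cord 8 of 18813 (0.0425%) were called, all higher, and 391 had an unadjusted p under 0.05. They were Gm13886, Lamr1-ps1, Serpina3n, Lgals3, Mmp12, Itgax, Ccl3 and Cst7, the last 5 known from activated microglia and the third from reactive astrocytes. None of those 6 was called in TRAP, where Serpina3n changed by 0.70 ± 0.24 against 1.30 ± 0.20 in cord. No gene was called in a test of the TRAP difference minus the cord difference by edgeR, where 1423 had an unadjusted p under 0.05. DESeq2 called 36 and limma 3. For Add2 the change was 1.94 ± 0.49 in TRAP and 0.80 ± 0.35 in cord, for Nefm 1.02 ± 0.24 and 0.08 ± 0.19, and for Opalin -2.14 ± 0.40 and -0.40 ± 0.33. Per the study, part of the lysate of each TRAP sample was kept as input, so cord and TRAP libraries share animals. The titles do not say which libraries share an animal. The test of the TRAP minus cord difference therefore treated them as independent and ignored this pairing.

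The same genotypes at 14 weeks, when motor symptoms are present, differed in 2009 genes (10.7%) in TRAP, in libraries that are not shared with the 9-week groups. Of the 4 control TRAP libraries at 14 weeks 1 had a Y-linked sum over 2 raw CPM, at 81.6, and its part in the 14-week differences was not tested. The difference between the ages was itself called for 322 genes (1.71%), 48 (0.255%) with a higher and 274 (1.46%) with a lower 9-week than 14-week change. Of these, 33 were called at 9 weeks, 264 at 14 weeks, 8 at both and 33 at neither, and 300 had a mean under 5 CPM in the 8 libraries. The 322 became 171 without control replicate 2 and 0 with limma or in TRAP libraries alone, where 768 and 585 genes had an unadjusted p under 0.05. Among the named genes Syn1 differed, with a change of 0.89 ± 0.21 at 9 weeks and -0.18 ± 0.19 at 14 weeks (adjusted p of the difference = 0.0337). Nhlh1 also differed (adjusted p = 0.0210), having 0.644 to 1.87 CPM in A315T and no count in the 4 controls at 14 weeks. Oligodendrocyte genes had a median change of -1.67 at 9 weeks and -1.33 at 14 weeks, mitochondrially encoded genes -4.07 and -3.73, and neither list had a member for which the ages differed. Add2 changed by 1.42 ± 0.45 at 14 weeks (adjusted p = 0.0256), Hnrnpa1 by 0.86 ± 0.21 (adjusted p = 0.00476) and Nefm by 0.67 ± 0.22 (adjusted p = 0.0330).

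**Figure D4:**
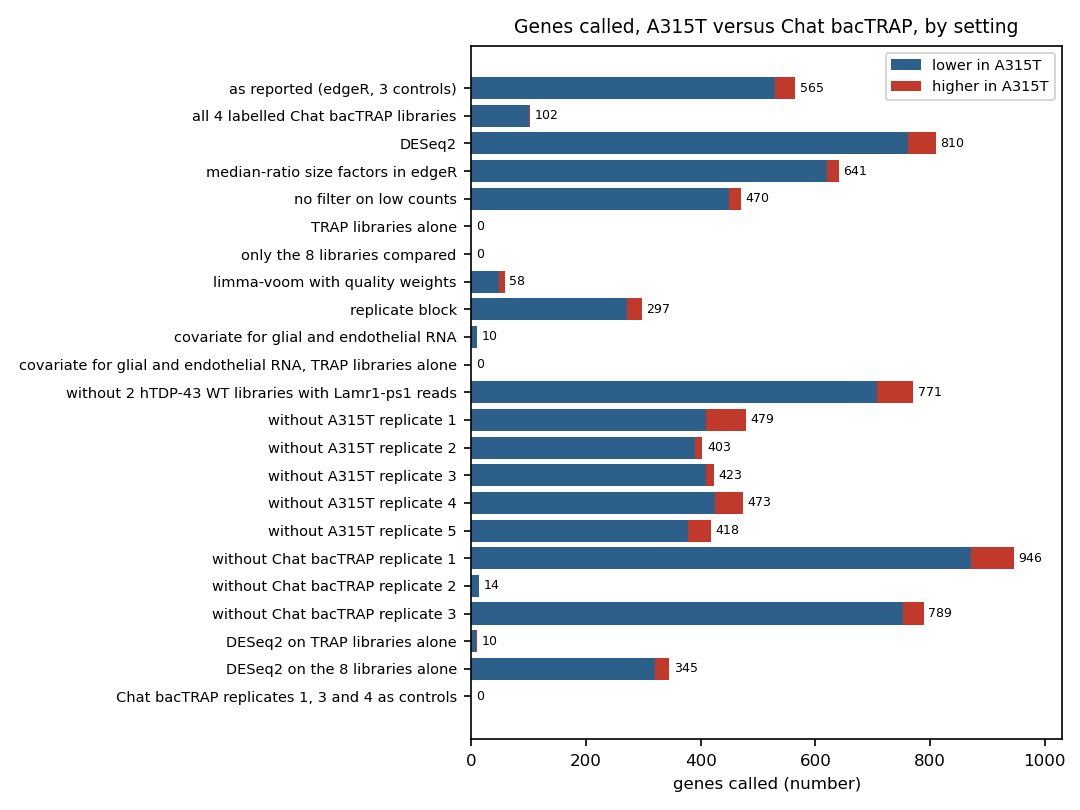
Number of genes called in A315T against Chat bacTRAP at 9 weeks in TRAP (horizontal axis, starting at 0), lower genes in blue and higher genes in red, under each setting of the analysis (vertical axis). Counts run from 0 to 946, and there are 14 without control replicate 2.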

How the data were processed

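The authors deposited raw read counts per Ensembl gene for each library, made per the study's methods and the labels by alignment with STAR and counting with featureCounts on mm10; the study states the versions. Normalized tables were not used. Counts were tested with edgeR 4.0.16 in R 4.3.3 (filterByExpr with a minimum count of 10, TMM scaling, robust quasi-likelihood fit) in 55 libraries of 12 groups, which share 1 estimate of the spread, with Benjamini-Hochberg adjustment over all genes tested. Genes were called at an adjusted p under 0.05 and a log2 change of at least 1. Levels are TMM-scaled CPM unless called raw. The text names the 10 largest rises and falls among called genes averaging 5 CPM or more whose groups did not overlap. It also draws on the 3 genes per list with the lowest p and every gene named in the study, with Tardbp, Prnp, Lamr1-ps1 and Gm13886 as a genotype check. The compared libraries and the 24 lists were chosen with earlier results of these data known. Alternatives used DESeq2 1.42.0, limma 3.58.1, other scaling, filters, libraries, a glial covariate and a replicate block. Gene coordinates are GRCm38. Depth was 2486628 to 43799600 counts per compared library. Figures were drawn with matplotlib 3.10.9 in Python 3.11.15.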

Additional observations from a re-analysis of the deposited data

Results flagged for a closer look

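Of 117 gene and list values tested in A315T, 8 had 1 library far from the other 4, where chance gives about 1 in 20. The gap of that library as a share of the range on the log2 scale was 0.71 for Gm13886 and 0.747 for mt-Nd5 (both A315T replicate 1, the lowest), 0.73 for mt-Cytb (replicate 2, the lowest) and 0.832 for Nhlh1 (replicate 1, with no count). It was 0.874 for Slc17a6 (replicate 3, the lowest) and 0.763 for Chac1 (replicate 3, the highest). For the mean of the oligodendrocyte precursor list it was 0.778 (replicate 2, the highest), and for that of the skeletal muscle list 0.766 (replicate 2, the lowest).

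The change at 9 weeks minus that at 14 weeks was 1.07 for Syn1 (log2, edgeR adjusted p = 0.0337), from 0.89 at 9 weeks and -0.18 at 14 weeks. For Nhlh1 it was -7.27 (edgeR adjusted p = 0.0210), a fitted value against 14-week controls that are all at 0 and therefore no bound.

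In the left-out library labelled Chat bacTRAP replicate 4, Lamr1-ps1 had 1.34 raw CPM, against 0 in the 3 controls compared.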

How the results depend on the processing

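The 565 genes called at 9 weeks in TRAP became 102 with all 4 labelled controls, 297 with the replicate block, 58 with limma and 10 with a glial and endothelial covariate. They became 0 in TRAP libraries alone, with or without that covariate, and 0 in the 8 libraries alone. Of alternatives chosen after seeing the data, DESeq2 on TRAP libraries alone gave 10, DESeq2 on the 8 libraries 345, and control replicates 1, 3 and 4 gave 0, with 477 genes at an unadjusted p under 0.05. Leaving out 1 library gave 14 (without control replicate 2) to 946 (without control replicate 1). The count stayed within 1.5 times with DESeq2 (810), median-ratio scaling (641), no filter (470) and without 2 hTDP-43 WT TRAP libraries (771), which held Lamr1-ps1 at 1.11 (9 weeks) and 1.69 (14 weeks) raw CPM. The 0 genes of the TRAP minus cord difference became 36 with DESeq2, 3 with limma, 1 without the 2 hTDP-43 WT libraries and 0 to 48 when 1 library was left out, 48 without control replicate 1. The 322 genes of the difference between ages became 574 with DESeq2, 211 with the replicate block, 10 with DESeq2 on TRAP libraries alone, and 0 with limma and in TRAP libraries alone with or without the covariate. They ran from 171 (without control replicate 2) to 348 when 1 library was left out. Where not stated, the cause was not tested.

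Some genes with an unadjusted p under 0.05 changed sign. With the covariate the change was 0.31 for Siglech, 0.41 for Slc7a11, 0.14 for Apoe, 0.27 for Tia1 and 0.35 for Gfap. With the covariate in TRAP libraries alone it was 0.75 for Siglech, 0.60 for Slc7a11, 0.11 for Apoe, 0.062 for Cnp, 0.30 for Tia1 and 0.49 for Gfap. With control replicates 1, 3 and 4 it was 0.71 for Siglech, 0.36 for Slc7a11, 0.024 for Egr1, 0.24 for Tia1 and 0.39 for Gfap. Leaving out 1 library gave -3.12 to 1.29 for Siglech, -2.18 to 0.37 for Slc7a11, -1.25 to 0.32 for Egr1, -2.69 to 0.24 for Lpl, -1.55 to 0.45 for Tia1 and -1.15 to 0.43 for Gfap, the positive values without control replicate 2.

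Same-numbered libraries of the groups did not all deviate together (correlations across genes of -0.026, 0.035 and 0.126), so the replicate numbers were not taken as a pairing. Control replicate 3 limits what could be detected among low genes.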

Other observations

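Xist did not divide by genotype across the series. It was under 2 raw CPM in all 5 A315T TRAP and all 5 A315T cord libraries at 9 weeks, and also in 2 of 6 Chat bacTRAP cord libraries, 3 of 6 hTDP-43 WT cord libraries and 1 of 3 hTDP-43 WT TRAP libraries of that age. In A315T TRAP libraries at 14 weeks it ran from 0.97 to 22.1 raw CPM, with 3 of 4 under 2. In Chat bacTRAP cord libraries at 9 weeks it ran from 1.31 to 11.1 raw CPM.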
